A study of Mus musculus with 6 samples.

Results

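The endocannabinoid genes of the mouse cochlea were examined in the presence and absence of Fabp7, a fatty acid binding protein. They comprise the cannabinoid receptor genes Cnr1 and Cnr2, the synthesis enzyme genes Napepld, Dagla and Daglb, and the degrading enzyme genes Faah, Mgll and Abhd6. A gene was included when 1 of its annotated probes was brighter than the 40th percentile of the array on 3 or more of the 6 arrays. All 8 genes met this rule, out of 16143 named genes that did, and each was measured above that level on all 6 arrays. Of 14 probes annotated to these genes, 11 passed and 3 did not.

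RNA came from 3 Fabp7 (-/-) knockout pools and 3 Fabp7 (+/+) wild-type pools, all from females aged 7 months. Each pool held 4 cochleae of 2 mice, so that each genotype stands for 12 cochleae of 6 mice. The otic capsule was kept and vestibular tissue was removed, so bone, lateral wall, ganglion and sensory epithelium were measured together. The strain background and the cells in which Fabp7 is normally active are not given in the sources used here. In such bulk tissue, fewer cells of a type and less RNA per cell cannot be told apart.

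Endocannabinoids are lipid messengers made on demand from membrane lipids. Anandamide is released from a phospholipid precursor by the phospholipase NAPE-PLD, among other routes, and hydrolysed by FAAH inside the cell. The other main messenger, 2-arachidonoylglycerol, is made by the diacylglycerol lipases and is broken down mainly by monoacylglycerol lipase, with a contribution from ABHD6. Both act on the receptors CB1, found largely on nerve endings, and CB2, found largely on immune cells. Fatty acid binding proteins, FABP7 among them, can carry anandamide through the cytosol towards FAAH.

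The arrays were first checked against their labels. Fabp7 gave raw signals of 10.9, 3.75 and 3.43 in knockout and of 2674, 1554 and 1860 in wild type, so every array matched its genotype by this single probe. Even this loss had a limma adjusted p of 0.061 over all features, above the threshold of 0.05. The adjusted p was 0.00733 without knockout replicate 1, 0.486 without knockout replicate 2 and 0.443 without knockout replicate 3. With any wild-type array left out, Fabp7 did not pass the filter and had no fit. The 75th percentile of the signal lay between 581.06 and 621 on the knockout arrays and between 665 and 677 on the wild-type arrays. Pairs of arrays correlated at 0.988 to 0.9945 over the 27189 features tested. Of the fixed cochlear markers, all 7 hair cell genes and all 6 fibrocyte and cartilage genes were measured. Values below are scaled log2 signals, in which 0 marks the 75th percentile of the array and 1 marks a doubling of it. Because probes differ in brightness, the level of one gene is not set against that of another.

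No endocannabinoid gene differed between the genotypes at an adjusted p under 0.05 (limma, Benjamini-Hochberg over all 27189 features), where 0% of all features did. At an unadjusted p under 0.05 there was 1 of the 8 genes, Mgll, beside 5.7% of all features (3.04% higher and 2.66% lower in knockout). The estimated differences were small. Across the 8 genes they ran from −0.25 to 0.20 on the log2 scale, with 6 above 0 and 2 below and a median of 0.09, beside a median of 0.03 over all features. In 3 of the 8 genes the knockout and wild-type arrays did not overlap, beside 12.4% of all features (8.08% higher and 4.27% lower in knockout). These were the 3 genes of degrading enzymes, with Mgll and Abhd6 higher in knockout and Faah lower.

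**Figure D1:**
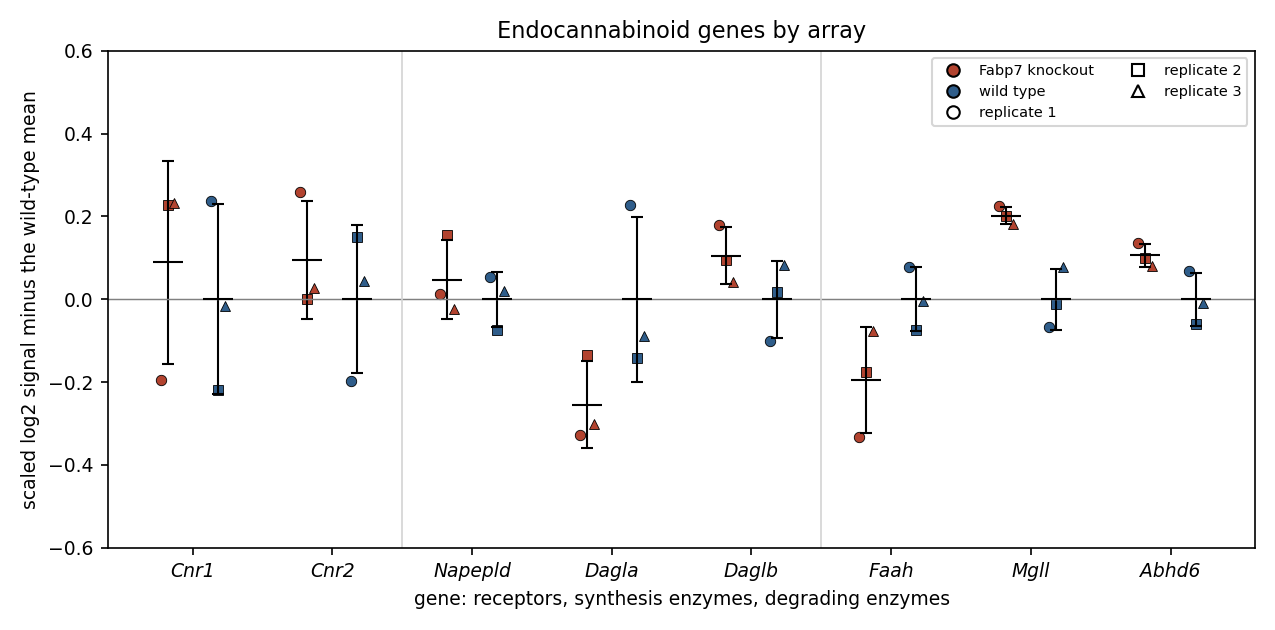
Scaled log2 signal of each gene on each array, minus the wild-type mean of that gene, with receptors on the left, synthesis enzymes in the middle and degrading enzymes on the right. Points are arrays (red, Fabp7 knockout; blue, wild type; the shape gives the replicate number), and bars show the mean ± SD of 3 arrays. Mgll knockout arrays sit together above all wild-type arrays, while the Cnr1 and Cnr2 arrays of both genotypes are intermixed.

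Cnr1 encodes CB1, the G protein-coupled receptor through which endocannabinoids restrain transmitter release. Its scaled log2 signal was 0.69, 1.12 and 1.12 on the knockout arrays, against 1.12, 0.67 and 0.87 on the wild-type arrays. The lowest array was thus a wild-type one and the highest values were shared by both genotypes. The means were 0.98 ± 0.25 in knockout and 0.89 ± 0.23 in wild type (SD, n = 3 each), a difference of 0.09 ± 0.17 (SE). The 95% interval of the difference ran from −0.33 to 0.50, the widest among the 8 genes. Without wild-type replicate 2 the difference was −0.02. These values come from 1 of the 2 Cnr1 probes. The other exceeded the 40th percentile on only 1 array, with raw signals of 14.3, 19.7 and 6.06 in knockout and 19.6, 13.5 and 13.0 in wild type.

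Since CB1 is chiefly a neuronal receptor, the fixed neuron markers were read beside it. All 8 of them were measured, and none lay under the 40th percentile on any array. Their summed signal, each probe divided by the 75th percentile of its array, was 232, 242 and 235 in knockout and 261, 205 and 205 in wild type. Wild-type replicate 1 held both the highest neuron sum and the highest Cnr1 value, and wild-type replicate 2 both the lowest neuron sum and the lowest Cnr1 value. Other arrays did not match in this way. Wild-type replicate 3 had almost the same low sum, 205, with Cnr1 at 0.87. Knockout replicate 1, at a sum of 232, had Cnr1 at 0.69. Whether neuron content played a part in the Cnr1 values was not tested. The named genes whose signal ran most like Cnr1 over the 6 arrays were Pcbp4 (Pearson r = 0.992), an RNA-binding protein gene, Lage3 (0.9912) and Etv1 (0.991), an ETS transcription factor gene. These were the highest of 15526 genes compared, all measured on the same 6 arrays, and picking the top of so many favours a high r. Their own differences between genotypes were 0.02, 0.03 and 0.04. Whether they are regulated together with Cnr1 was not tested.

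Cnr2 encodes CB2, the receptor carried mostly by B cells and other leukocytes. Its scaled log2 signal was −0.763, −1.02 and −0.996 in knockout, against −1.22, −0.87 and −0.98 in wild type. The extremes were knockout replicate 1 at the top and wild-type replicate 1 at the bottom, with the other 4 arrays between them. The difference was 0.10 ± 0.12 (SE), with a 95% interval from −0.21 to 0.40. Without wild-type replicate 1 it was −0.0030.

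Marker sums of leukocytes were set beside the Cnr2 values. For B cells 5 markers were read, and their summed signal was 16.8, 16.1 and 15.9 in knockout and 7.97, 14.1 and 20.6 in wild type. The estimated difference of these markers was above 0 for 5 of 5, with a median of 0.29. The lowest B cell sum and the lowest Cnr2 value both fell on wild-type replicate 1. The highest B cell sum fell on wild-type replicate 3, but the highest Cnr2 value on knockout replicate 1. All 8 macrophage markers were measured, with sums of 85.7, 84.3 and 80.4 in knockout and 80.8, 94.0 and 93.3 in wild type. Their estimated difference was below 0 for 8 of 8. Within wild type the macrophage sums ranked as the Cnr2 values did. Within knockout both were highest on replicate 1, while replicates 2 and 3 ranked the other way round. Over all arrays the highest macrophage sum fell on wild-type replicate 2. The part of either cell type in the Cnr2 values was not tested.

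Napepld encodes NAPE-PLD, which frees anandamide and related N-acylethanolamines from their phospholipid precursors. Its scaled log2 signal was 0.35, 0.49 and 0.31 in knockout, against 0.39, 0.26 and 0.36 in wild type. The genotypes overlapped, with the 2 extremes on wild-type replicate 2 and knockout replicate 2. The difference of 0.05 ± 0.08 (SE) had a 95% interval from −0.15 to 0.24. It was −0.0062 without knockout replicate 2.

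Dagla and Daglb encode the paired diacylglycerol lipases, of which the alpha enzyme is the main source of 2-arachidonoylglycerol at synapses in brain and the beta enzyme is prominent in macrophages and other peripheral cells. The Dagla probe was dim, between percentiles 45.45 and 50.04 of its arrays. Its scaled log2 signal was −4.13, −3.94 and −4.11 in knockout, against −3.58, −3.95 and −3.89 in wild type. The genotypes overlapped by 0.0061, knockout replicate 2 lying just above wild-type replicate 2, and wild-type replicate 1 stood well above the rest. Dagla had the largest estimated difference of the 8 genes, −0.25 ± 0.12 (SE), with a 95% interval from −0.55 to 0.04 and an unadjusted p of 0.0813 (limma, adjusted p = 0.866). Without wild-type replicate 1 the difference was −0.14, and with an offset of 16 added to every signal before the log2 it was −0.15.

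Daglb gave 1.88, 1.80 and 1.75 in knockout, against 1.60, 1.72 and 1.79 in wild type. The 2 highest values were knockout ones and the lowest came from wild-type replicate 1, with overlap between. Before scaling the groups overlapped too, at 2249, 2160 and 1948 in knockout and 2057, 2192 and 2304 in wild type. The scaled difference was 0.11 ± 0.08 (SE), with a 95% interval from −0.09 to 0.30. The estimates for the lipase pair thus had opposite signs, neither past the threshold. Whether the lipases differed from each other was not tested.

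The genes most like Dagla over the 6 arrays were Mfsd2a (Pearson r = 0.989), a transporter of lysophospholipids that carry omega fatty acids into brain, Sspo (0.984), which encodes SCO-spondin, and Slc12a4 (0.982), a potassium-chloride cotransporter gene. Picked in the same way as the top of 15526 genes, each was highest on wild-type replicate 1, as Dagla was. Their own differences between genotypes were −0.20, −0.18 and −0.07.

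The 3 genes whose arrays separated by genotype, a pattern that 12.4% of all features showed, encode degrading enzymes. Faah no longer separated with an offset of 16 before the logarithm, nor Abhd6 with the probes of each gene averaged, and Dagla separated as well, lower in knockout, when arrays were centred on the median of the tested features. Faah and Mgll encode the main enzymes that end the signals of anandamide and 2-arachidonoylglycerol. Their promoter windows are shown for that reason and because their estimates had opposite signs, neither past the adjusted threshold. Each is the 250 bases before an annotated start in RefSeq (GRCm38.p6), printed 5′ to 3′ on the strand of the gene, with capitals marking GGGCGG (a GC box, either strand) and CACGTG (an E-box). The Faah window is chr4:116017925-116018174 on the minus strand, and the Mgll window, the first of its annotated starts, is chr6:88724162-88724411 on the plus strand.
Faah: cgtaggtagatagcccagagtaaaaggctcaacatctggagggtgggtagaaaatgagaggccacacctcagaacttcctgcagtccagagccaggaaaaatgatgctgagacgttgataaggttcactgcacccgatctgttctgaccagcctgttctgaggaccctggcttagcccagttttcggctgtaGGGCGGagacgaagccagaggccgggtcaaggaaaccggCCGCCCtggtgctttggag
Mgll: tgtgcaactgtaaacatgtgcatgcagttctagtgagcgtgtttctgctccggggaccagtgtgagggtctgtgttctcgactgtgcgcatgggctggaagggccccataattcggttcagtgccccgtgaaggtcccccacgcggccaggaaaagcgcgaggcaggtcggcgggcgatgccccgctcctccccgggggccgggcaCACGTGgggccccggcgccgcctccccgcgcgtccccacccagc

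The Faah window held GGGCGG at 2 places, 58 to 53 bases before the start and, on the opposite strand, 19 to 14 bases before it. The Mgll window held CACGTG once, 44 to 39 bases before the start. The window at the other annotated Mgll start held GGGCGG once on the opposite strand, 121 to 116 bases before that start, and no CACGTG. Neither Mgll start was matched to the transcript of a probe. These matches did not overlap. The windows were 55.6% and 68.0% G and C for Faah and Mgll, beside a median of 52.4% over all 32851 windows. Windows were found for 7 of the 8 genes, all but Dagla, with 12 windows in all. Of these, 4 held GGGCGG on either strand, 2 held CACGTG, 2 held CCAAT on either strand and 0 held TATAAA on either strand. Over all windows the shares were 32.7% for GGGCGG, 6.02% for CACGTG, 33.8% for CCAAT and 12.4% for TATAAA. A match is a run of letters and says nothing of binding in these cochleae.

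Faah encodes fatty acid amide hydrolase, the serine hydrolase that ends anandamide signalling. Its raw signal was 197, 223 and 224 in knockout, against 290, 257 and 270 in wild type. The scaled log2 signal was −1.63, −1.48 and −1.38 in knockout, against −1.22, −1.37 and −1.30 in wild type. All 3 knockout arrays lay below all 3 wild-type arrays before and after scaling, but after scaling the gap between knockout replicate 3 and wild-type replicate 2 was only 0.0018. The means were −1.49 ± 0.13 in knockout and −1.30 ± 0.08 in wild type (SD, n = 3 each). The difference of −0.19 ± 0.09 (SE), a fold of 0.874, had a 95% interval from −0.42 to 0.03 and did not pass the test (unadjusted p = 0.0779, limma adjusted p = 0.866). Leaving out single arrays gave differences from −0.25 to −0.13, the one nearest to 0 without knockout replicate 1. The other Faah probe, annotated to a cDNA clone, lay under the 40th percentile on all 6 arrays.

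Mgll encodes monoacylglycerol lipase, which hydrolyses most 2-arachidonoylglycerol in brain and also completes fat breakdown in adipocytes. Its brightest probe gave scaled log2 signals of 4.17, 4.14 and 4.12 in knockout, against 3.87, 3.93 and 4.02 in wild type. The knockout arrays lay close together and above all wild-type arrays, with a gap of 0.10 between the groups. The means were 4.14 ± 0.02 in knockout and 3.94 ± 0.07 in wild type (SD, n = 3 each). The difference was 0.20 ± 0.07 (SE), a 1.15-fold higher signal, with a 95% interval from 0.03 to 0.37. Its unadjusted p of 0.0255 corresponded to a limma adjusted p of 0.809, so Mgll did not pass. With single arrays left out, the unadjusted p ran from 0.0276 (without wild-type replicate 3) to 0.0691 (without knockout replicate 2), and it was under 0.05 in 1 of these 6 fits. The unscaled signals of this probe overlapped, at 10955, 10965 and 10134 in knockout and 9928, 10155 and 10836 in wild type.

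The 3 measured Mgll probes did not give one answer. The next brightest, annotated to the same transcript, had scaled log2 signals of 2.76, 2.68 and 2.70 in knockout, against 2.44, 2.49 and 2.56 in wild type. It differed by 0.21 ± 0.07 (SE), again without overlap (unadjusted p = 0.0211, limma adjusted p = 0.817 over all 33484 passing probes). The dimmest of the 3, annotated to another Mgll transcript, gave 1.54, 1.70 and 2.26 in knockout, against 2.08, 2.01 and 1.85 in wild type. Knockout replicates 1 and 2 were its lowest arrays and knockout replicate 3 its highest, and the difference was −0.15 ± 0.20 (SE). The remaining Mgll probe lay under the 40th percentile on all 6 arrays.

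Within an array the ratio of probes does not depend on the scaling. The log2 ratio of the dimmest probe to the brightest was −2.63, −2.45 and −1.87 in knockout, against −1.79, −1.92 and −2.17 in wild type. The groups overlapped, and the difference of −0.35 had an exact two-sided permutation p of 0.3, where 3 against 3 arrays cannot go below 0.1. The ratio of the next brightest probe to the brightest differed by 0.01 between the genotypes (exact permutation p = 0.6). With the mean of its 3 probes standing for the gene, Mgll was at 0.09 with an unadjusted p of 0.308.

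**Figure D2:**
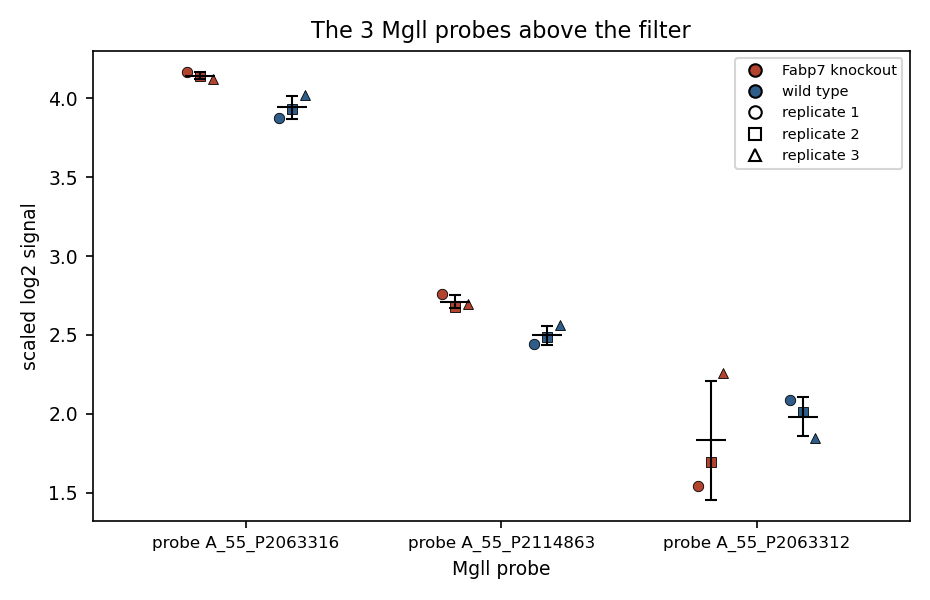
Scaled log2 signal of the 3 measured Mgll probes, brightest on the left, for 3 Fabp7 knockout arrays (red) and 3 wild-type arrays (blue), with the mean ± SD in black. The left and middle probes separate the genotypes, whereas the knockout arrays of the right probe spread from 1.54 to 2.26, on both sides of its wild-type arrays.

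Several marker lists were read beside Mgll. Of 8 adipocyte markers 6 were measured, with 5 of 6 below 0. Their summed signal was 10.0, 8.20 and 8.24 in knockout and 8.38, 10.2 and 11.3 in wild type, so the groups of this sum overlapped. For Schwann cells and satellite glia 5 of 8 markers were measured, with 2 above 0 and 3 below and a median difference of −0.04. Their summed signal of 508, 521 and 511 in knockout lay above 450, 406 and 466 in wild type without overlap, as the brightest Mgll probe did. Such a sum is weighted towards bright probes, so it can be higher while the median difference is below 0. The hair cell sum, over 7 of 7 markers, was 26.8 to 32.5 in knockout and 20.3 to 26.1 in wild type, also without overlap. Among all 12 marker lists, only the sums of these 2 separated the genotypes. What part these cells had in the Mgll signal was not tested.

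Abhd6 encodes a membrane-bound lipase that hydrolyses a smaller share of 2-arachidonoylglycerol, at postsynaptic sites in neurons. Its brighter probe gave 0.44, 0.40 and 0.39 in knockout, against 0.37, 0.25 and 0.30 in wild type. The knockout arrays lay above the wild-type arrays by a gap of 0.01. The difference was 0.11 ± 0.07 (SE), with a 95% interval from −0.06 to 0.27 and an unadjusted p of 0.164 (limma adjusted p = 0.866). The unscaled signals of this probe overlapped, at 828, 822 and 759 in knockout and 877, 789 and 820 in wild type. The other probe, annotated to the same transcript, gave −0.05, 0.23 and 0.05 in knockout, against 0.21, 0.08 and 0.09 in wild type. Its groups overlapped and its difference was −0.05 ± 0.10 (SE). The log2 ratio of this probe to the brighter one differed by −0.16 (exact two-sided permutation p = 0.2). With both probes averaged, Abhd6 was at 0.03.

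Taking each probe by itself, 4 of the 11 measured probes had groups without overlap, beside 12.3% of all passing probes. They were the 2 brighter Mgll probes, the brighter Abhd6 probe and the Faah probe. Before scaling between arrays, 2 of the 11 separated, Faah and Dagla, both lower in knockout, beside 23.4% of all passing probes, 22.7% lower in knockout.

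**Figure D3:**
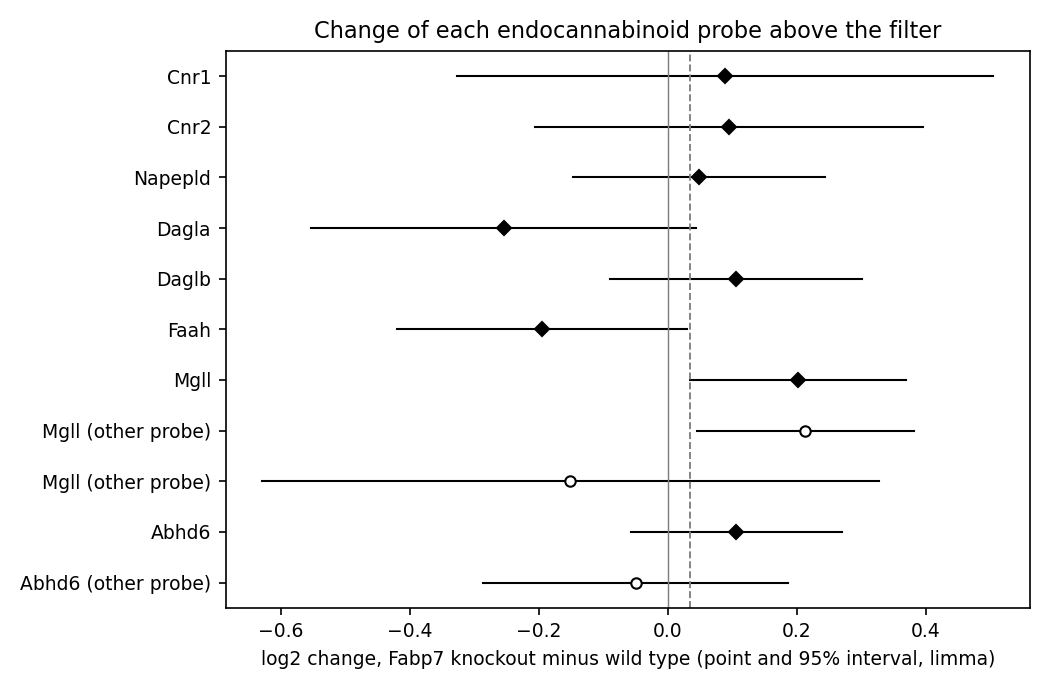
Log2 change of each measured endocannabinoid probe, Fabp7 knockout minus wild type, with its 95% interval from limma. Diamonds are the probes that stand for a gene, open circles its other probes, and the dashed line the median of all features at 0.03. The intervals of both brighter Mgll probes lie above 0, and every other interval includes 0.

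The rest of the pathway was described with 34 further genes in 6 lists, of which 31 were measured. None passed the adjusted threshold by limma, and 3 had an unadjusted p under 0.05, Gdpd3 on the higher side and Ces1d and Ptgs2 on the lower, beside 5.7% of all features, 3.04% higher and 2.66% lower. Their median difference was 0.03, the same as that of all features, with 22 above 0 and 9 below. In 4 of the 31 the groups did not overlap, a share close to the 12.4% of all features.

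The enzymes that degrade or oxidise endocannabinoids by other routes had 5 of 6 members below 0 and a median of −0.14. Ces1d, a carboxylesterase of fat and liver, gave scaled log2 signals of 1.28, 1.39 and 1.57 in knockout, against 1.78, 1.75 and 1.68 in wild type. It had the lowest unadjusted p of the lists, 0.0128, at a difference of −0.33 ± 0.09 (SE; limma adjusted p = 0.745). Ptgs2, the inducible cyclooxygenase, which can also oxidise endocannabinoids, gave −5.01, −4.81 and −4.73 in knockout, against −4.42, −4.61 and −4.56 in wild type. It differed by −0.32 ± 0.10 (SE; limma adjusted p = 0.792), and knockout replicate 1 lay under the 40th percentile. Ptgs2 was dim on every array, which limits what can be seen there. Its raw signals were 18.9, 22.2 and 21.8 in knockout and 31.7, 27.3 and 28.3 in wild type. The 40th percentile lay between 17.2 and 23.7. In both genes the knockout arrays lay below the wild-type arrays. Naaa, the lysosomal acid amidase, was at −0.03, and Abhd12, a further hydrolase of 2-arachidonoylglycerol, at 0.07. Of the adipocyte markers, 5 of 6 were below 0, as were Ces1d and Ptgs2, with a median difference of −0.38. Among them, named after their values were seen, Plin1, which coats lipid droplets, was at −0.81, Cidec, a lipid droplet protein, at −0.73 and Lipe, hormone-sensitive lipase, at −0.49 (limma unadjusted p of 0.0196, 0.0209 and 0.0264). The rest of the measured list was nearer to 0, with Fabp4 at −0.26, Retn at −0.01 and Adipoq at 0.02 (limma unadjusted p of 0.196, 0.953 and 0.879). The macrophage markers were below 0 for 8 of 8, with a median of −0.09. The summed signal of each of these 2 lists overlapped between the genotypes. Knockout replicate 1 had the highest knockout sums, 10.0 for adipocytes and 85.7 for macrophages, but the lowest Ces1d and Ptgs2 values. Wild-type replicate 1 had the lowest wild-type sums, 8.38 and 80.8, but the highest Ces1d and Ptgs2 values. What part these cells had in the signals of Ces1d and Ptgs2 was not tested.

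The alternative routes of N-acylethanolamine synthesis had 8 of 10 members above 0 and a median of 0.12. Plaat1, an N-acyltransferase, was at 0.21 ± 0.09 (SE) and Abhd4, a lipase that removes acyl chains from the precursor, at 0.13 ± 0.08, each with all knockout arrays above all wild-type arrays. Neither passed (limma adjusted p = 0.866 for both). Gdpd3, a lysophospholipase D, was singled out after its values were seen. Its scaled log2 signal was 1.44, 1.38 and 1.71 in knockout, against −2.24, 1.45 and −1.95 in wild type. Wild-type replicate 2 alone among the wild-type arrays lay at the knockout level, and the difference of 2.43 ± 0.98 (SE) did not pass (limma adjusted p = 0.866). Without wild-type replicate 2 it was 3.61 with a limma adjusted p of 0.0309, and without any other single array it ran from 1.76 to 2.49 with an adjusted p of 0.692 to 0.996.

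The phospholipases that supply diacylglycerol, Plcb1 to Plcb4, had 3 of 4 members above 0 by their brightest probes, with a median of 0.05. Plcb3 was at only 0.005. Other probes gave −0.01 and −0.24 for Plcb1, −0.19 for Plcb2, and 0.18, 0.10 and −0.21 for Plcb4. Among other receptors, Gpr55, Gpr119 and the capsaicin channel gene Trpv1 did not pass the filter, and the 4 measured, Gpr18, Trpv4, Ppara and Pparg, ran from 0.01 to 0.05 by their brightest probes, although the other Trpv4 probe was at −0.19 and the other 2 Ppara probes were at 0.19 and 0.21. The other lipid carriers were Fabp3 at −0.17 ± 0.14, Fabp5 at 0.06 ± 0.15, and Scp2 at 0.03. Fabp5 also carries anandamide, and its 95% interval ran from −0.31 to 0.43. The CB1 partner genes Cnrip1, Sgip1, Arrb1 and Arrb2 were above 0 in 4 of 4 members, with differences from 0.0020 to 0.18 and none at an unadjusted p under 0.05.

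**Figure D4:**
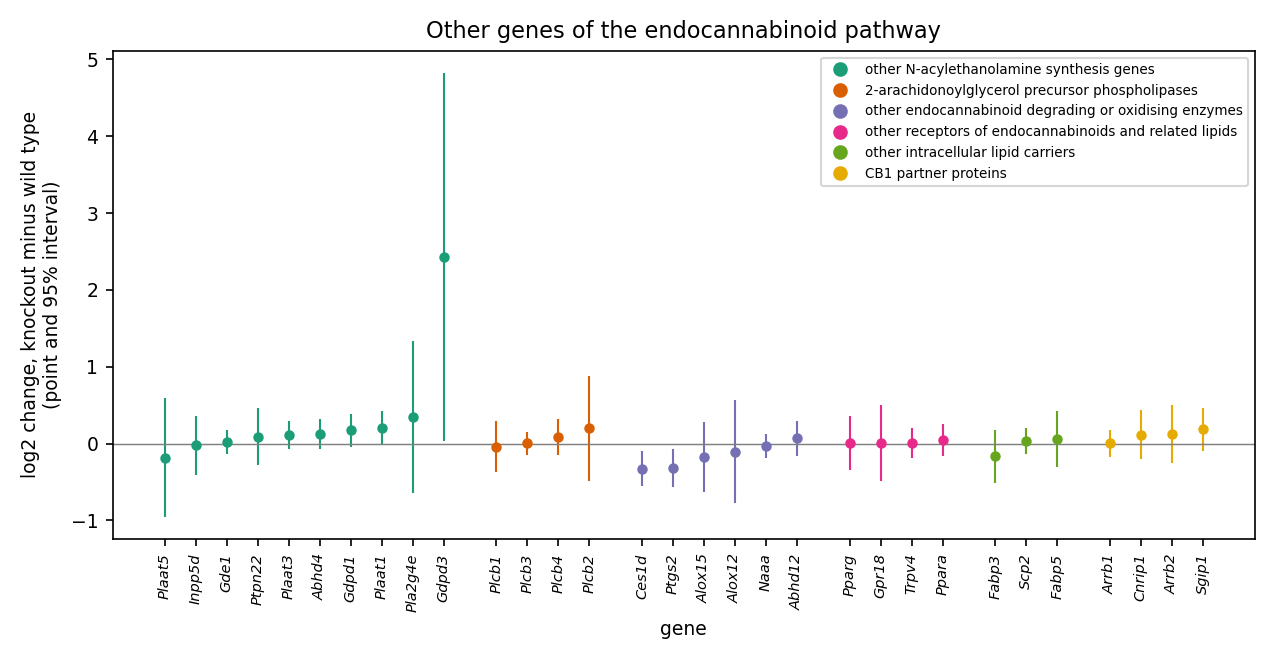
Log2 change of the 31 other measured genes of the pathway, Fabp7 knockout minus wild type, with 95% intervals from limma, coloured by list. Gdpd3 has the widest interval, 0.03 to 4.82, and the intervals of Ces1d and Ptgs2 lie below 0.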

How the data were processed

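For each probe and array the authors deposited a raw, linear signal intensity that was not scaled between arrays, per the file headers. Samples carried Cy3 dye, per the labels, and were read with Agilent Feature Extraction 10.7, per the submitters' processing notes. How background was treated is not stated there. No detection or saturation marks were used. A matrix of log2 values, deposited by the authors, equalled the log2 raw signal minus 1 constant per array to within 1e-06. Its column medians were −3.55, −3.69 and −3.68 in knockout and −3.58, −3.67 and −3.67 in wild type, and all columns were matched to a sample.

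Signals were scaled to the 75th percentile of each array and put on the log2 scale. The platform annotation names 1 gene for 30625 of 55676 probes and several for 0, and symbols were updated by gene ID from RefSeq (30331 found). Of all probes 33484 passed the filter. The brightest passing probe stood for a gene, leaving 27189 features, 16143 of them named. The genotypes were compared without covariates by limma 3.58.1 (R 4.3.3), after a check on simulated data. Other probes of a gene come from a fit with every passing probe as its own feature. The labels give separate pools of mice, and 3 arrays a group limit the precision.

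The members and lists were chosen with earlier results of these data known. The text names all 8 genes, Fabp7, up to 6 genes of the other lists with the lowest unadjusted p and no overlap (4 qualified), and the 3 genes most like each of the 2 members with the widest range. Others account for a list. Marker sums overlapped between the genotypes in 10 of 12 lists and separated in 2, both given in the report. A planned comparison of protein sequences was not run. Same-numbered arrays deviated from their group means with correlations of −0.13, −0.04 and −0.14, so the replicate numbers were not taken as pairs.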

Additional observations from a re-analysis of the deposited data

How the results depend on the processing

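Over 19 alternatives per gene, no endocannabinoid gene passed the adjusted threshold under any. Over all features limma called 0 in the fit reported, 1 each with quantile normalization, dim signals raised to the 40th percentile, an offset of 16, named genes only, and the trend and robust prior, 3 with array weights, and 0 to 2 with an array left out. Features at an unadjusted p under 0.05 numbered 1550, against 912 over named genes only and 3427 with array weights. Of the endocannabinoid genes, 1 reached an unadjusted p under 0.05, against 0 with the probes of each gene averaged, and 0 to 1 with an array left out. That gene was Mgll with all arrays and without wild-type replicate 3, and Faah without knockout replicate 3. With the replicate number as a block, 0 endocannabinoid genes reached it, and no adjusted call of these genes, of Fabp7 or of all features changed. The numbers do not pair the samples.

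Faah, Dagla, Daglb, Mgll and Abhd6 kept their direction under every alternative run. Several of these, such as the other filters and the trend and robust prior, left the estimates as they were. None put a dimmer probe alone in place of the brightest. The dimmest measured Mgll probe was at −0.15 and the other Abhd6 probe at −0.05. Faah ranged from −0.25 to −0.13, Dagla from −0.32 to −0.13, Daglb from 0.05 to 0.15, Mgll from 0.09 to 0.24 and Abhd6 from 0.03 to 0.14. With an array left out, Cnr1 ranged from −0.021 to 0.23, Cnr2 from −0.0030 to 0.17 and Napepld from −0.0062 to 0.084. Cnr2 was at −0.0043 with array weights. The cause of these turns was not tested. Background correction by normexp was not run and neither was blocking by slide or scan date, as the tables used have no such columns. The signal of Dagla, just above the filter, limits what can be seen there.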
